A study of Mus musculus with 6 samples.

Results

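Neutrophil protease inhibitors are described here through 7 genes taken by name from the count table, all outside the stefin A cluster: Slpi, Wfdc17, Wfdc21, Serpinb1a, Serpinb6a, Cstb and Timp2. They are 7 of the 51789 genes of the table, and all 7 were among the 10397 genes with enough counts to be tested. Neutrophils were drawn from the bone marrow of mice with beads against Ly6G, a neutrophil surface antigen, and polyadenylated RNA was read as tags from the 3′ ends of transcripts (Lexogen QuantSeq). The 6 libraries are 3 labelled KO, with Snph knocked out, and 3 labelled WT, the control; Snph encodes syntaphilin, which anchors mitochondria to microtubules. The series title ties the work to neutrophil migration in cancer. The labels used here give no strain, age, sex, tumour status or design of the Snph allele, and do not say whether each library came from its own animal, so p-values measure the spread between libraries, which may be technical.

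Neutrophils carry serine proteases, cysteine cathepsins and metalloproteinases in their granules and lysosomes, and they also make proteins that hold these enzymes in check. Slpi, the secretory leukocyte protease inhibitor, has whey acidic protein (WAP) domains and blocks neutrophil elastase and cathepsin G; Wfdc17 and Wfdc21 are small secreted proteins with a WAP domain. Serpins trap a serine protease in a covalent complex, and the clade B serpins stay largely inside the cell. Stefin B, from Cstb, is a cytosolic inhibitor of cysteine cathepsins, and Timp2 is a secreted inhibitor of matrix metalloproteinases.

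Total counts were 7179569 to 9165218 in the KO-labelled and 7018388 to 9664381 in the WT-labelled libraries. Snph itself had 5, 2 and 8 counts in KO 1, 2 and 3 and no count in any WT-labelled library, opposite to the labels (exact two-sided permutation p = 0.1, the smallest that 3 against 3 allow). Every direction below therefore compares libraries labelled KO with libraries labelled WT. The neutrophil markers of the sort were present in every library, with S100a8 and S100a9 the most abundant, and the summed level of 10 such genes was 312200 to 333400 CPM (counts scaled to library size with TMM factors) in KO-labelled and 273400 to 293700 CPM in WT-labelled libraries. Markers of other cells differed as well. The 12 macrophage markers, led by Vcam1 and Slc40a1, summed to 799 to 970.0 CPM in KO-labelled and 1516 to 1593 CPM in WT-labelled libraries. Of the 12, 10 were lower at an edgeR adjusted p under 0.05, where 0.789% of all genes tested were lower. Among 6 megakaryocyte and platelet markers, led by Ppbp and Pf4, the sums were 60.8 to 90.9 CPM and 132 to 151 CPM for KO- and WT-labelled libraries. The 6 markers of B and plasma cells summed to 264 to 709 CPM in KO-labelled and 135 to 177 CPM in WT-labelled libraries, and Igkc (log2 fold change 1.498) and Jchain (1.394) were higher (edgeR adjusted p 0.0141 and 0.0361). In bulk RNA, fewer cells of a type and less RNA per cell cannot be told apart.

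Promoter sequences were at hand for 4 of the 7 genes. Those of 3 genes are shown because they belong to the gene that passed the test (Serpinb6a), the gene with the widest spread (Wfdc17) and the most abundant gene with a sequence (Slpi). Each runs 5′ to 3′ from 250 bases before to 50 bases after a RefSeq start site (GRCm38.p6), and capitals mark matches to the motifs searched.
Serpinb6a (chr13:34002745-34003044, minus strand): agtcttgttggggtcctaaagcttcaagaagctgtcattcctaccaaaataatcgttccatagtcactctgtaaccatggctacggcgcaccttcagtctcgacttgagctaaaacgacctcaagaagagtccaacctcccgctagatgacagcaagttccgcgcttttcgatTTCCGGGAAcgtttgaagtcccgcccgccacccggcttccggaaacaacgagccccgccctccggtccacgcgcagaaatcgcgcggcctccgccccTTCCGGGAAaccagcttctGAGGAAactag
Wfdc17 (chr11:83703806-83704105, plus strand): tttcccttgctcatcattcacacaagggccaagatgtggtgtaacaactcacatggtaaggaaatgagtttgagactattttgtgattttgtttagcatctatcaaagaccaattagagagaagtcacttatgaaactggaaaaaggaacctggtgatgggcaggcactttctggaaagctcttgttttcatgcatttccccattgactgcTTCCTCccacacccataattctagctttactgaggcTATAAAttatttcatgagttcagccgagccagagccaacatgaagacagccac
Slpi (chr2:164356458-164356757, minus strand): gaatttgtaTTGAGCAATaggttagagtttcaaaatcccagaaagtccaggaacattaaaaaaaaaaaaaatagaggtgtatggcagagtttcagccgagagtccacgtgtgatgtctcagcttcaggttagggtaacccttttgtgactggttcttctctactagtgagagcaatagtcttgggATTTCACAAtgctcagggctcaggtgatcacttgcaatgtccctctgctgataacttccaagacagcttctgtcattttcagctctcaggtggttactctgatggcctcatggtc

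The motifs, searched on both strands, were TTNNGNAAT for C/EBP, TGANTCA for AP-1, GAGGAA for PU.1, TTCNNNGAA for STAT and TATAAA for the TATA box, and no match overlapped another. The Slpi promoter held C/EBP letters from base -241 and from base -65 relative to the start site, a motif found in 11.5% of the 32851 promoters of the table. The Serpinb6a promoter held STAT letters from base -77 and from base 21, which 8.30% of promoters hold, and PU.1 letters from base 40, which 28.3% hold. In the Wfdc17 promoter, PU.1 letters began at base -39 and TATA box letters, present in 13.6% of promoters, at base -3. None of these windows held the AP-1 letters, which 7.81% of promoters hold, and neither the other Serpinb6a start site nor the Timp2 promoter held any of the 5 motifs. The tags were read at the 3′ end, so the counts do not show which start site was used, and a match is a match of letters only.

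Among the 7 inhibitors, only Serpinb6a passed the test, and it was lower in the KO-labelled libraries. The test was edgeR's quasi-likelihood test with Benjamini-Hochberg adjustment over all genes tested and a threshold of 0.05; it called 1.03% of all genes tested, 0.789% lower and 0.240% higher. With 1 of 7 genes called, the count is too small to set apart from that background. The KO- and WT-labelled libraries did not overlap for Slpi, Wfdc21 and Serpinb6a, 3 of 7 genes, where this held for 16.8% of all genes tested (7.48% higher and 9.32% lower in the KO-labelled libraries). The unadjusted edgeR p was under 0.05 for 4 of the 7, these 3 and Wfdc17, and for 11.4% of all genes tested. The 7 genes were chosen with earlier results of these data known, so these counts cannot test them as a set. The median log2 fold change was 0.18 over the 7 genes and 0.0060 over all genes tested. Over the 10 neutrophil markers it was 0.147, with 9 above 0 and 1 below, and 2 of them were called higher. Together the 7 genes took 0.736% ± 0.0272 of the counts of KO-labelled and 0.694% ± 0.0312 of those of WT-labelled libraries (SD, n = 3 each).

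**Figure D1:**
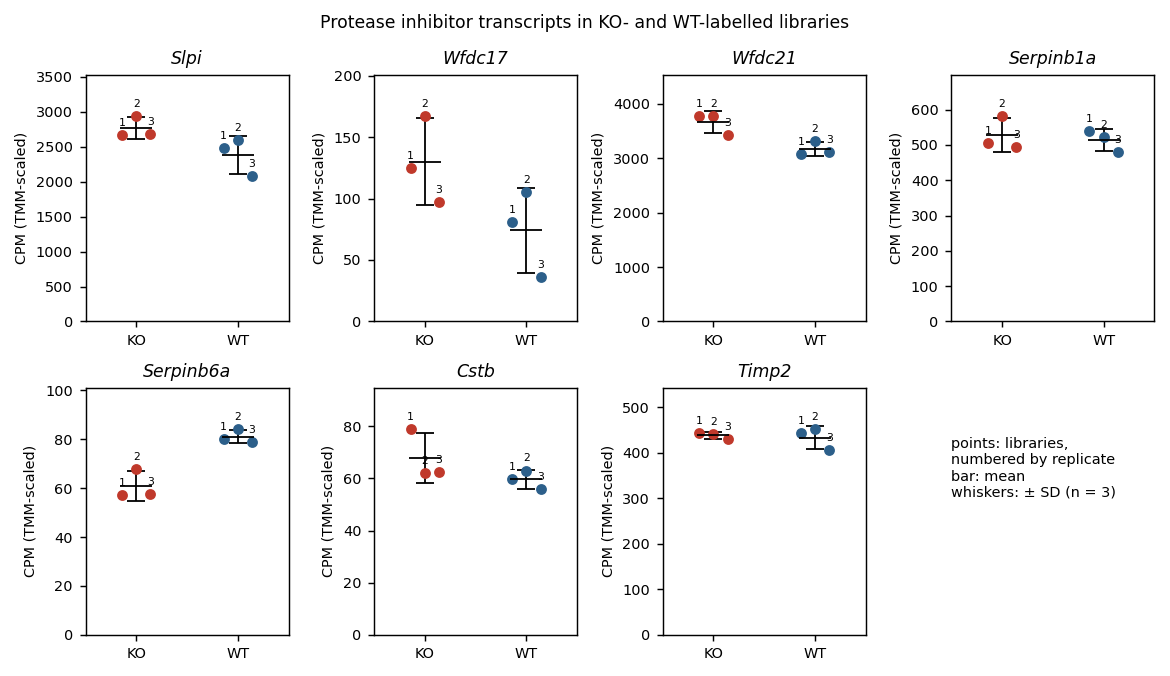
Level of each inhibitor transcript (CPM scaled by TMM factors, linear axis from 0) in the 3 KO-labelled libraries (left, red) and the 3 WT-labelled libraries (right, blue); points are libraries with their replicate number, bars the mean and whiskers the SD. The Serpinb6a points of the KO-labelled libraries all lie below those of the WT-labelled libraries, while the Wfdc17 points run from 36.5 to 167 CPM with overlap between the groups.

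The WAP-domain genes Wfdc21 and Slpi were the most abundant of the 7 and lay slightly higher in the KO-labelled libraries without passing the test. The neutrophil markers S100a8 and S100a9 were higher by a like amount (log2 0.242 and 0.197, edgeR adjusted p 0.0315 and 0.0518). The 10 neutrophil markers did not move alike, with log2 fold changes from -0.014 (Ltf) to 0.346 (Retnlg) and a median of 0.147. Wfdc21 (ENSMUSG00000051748, mm10 chromosome 11, 83746940 to 83752642, plus strand) had 3779, 3778 and 3420 CPM in KO 1, 2 and 3, against 3081, 3321 and 3119 CPM in WT 1, 2 and 3. All KO-labelled libraries were above all WT-labelled ones, and KO 3 was the closest to them. The log2 fold change was 0.21 (SE 0.06, 95% interval 0.07 to 0.34) with an unadjusted p of 0.00627 and an adjusted p of 0.189 (edgeR). It ranked 17th by mean level among the genes tested.

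Slpi (ENSMUSG00000017002, chromosome 2, 164354070 to 164389095, minus strand) showed 2672, 2946 and 2677 CPM in KO 1, 2 and 3, against 2477, 2591 and 2076 CPM in WT 1, 2 and 3. The groups did not overlap, but KO 1 and WT 2 were close, and WT 3 stood lowest. The log2 fold change was 0.22 (SE 0.08, 95% interval 0.04 to 0.39; edgeR adjusted p = 0.305), and Slpi ranked 23rd by mean level. Leaving out WT 3 brought it to 0.13. Within a library, Slpi had 75.6 ± 4.28 counts per 100 Wfdc21 counts in KO-labelled and 75.0 ± 7.39 in WT-labelled libraries (SD, n = 3 each). This ratio overlapped between the groups.

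Wfdc17 (ENSMUSG00000069792, chromosome 11, 83703991 to 83706268, plus strand) lies 40672 bases from Wfdc21 and is known from activated macrophages and microglia as well as neutrophils. It had 125, 167 and 97.2 CPM in KO 1, 2 and 3, against 80.6, 105 and 36.5 CPM in WT 1, 2 and 3. The groups overlapped, since WT 2 was above KO 3, and WT 3 was the lowest library. Its log2 fold change of 0.79 (SE 0.26, 95% interval 0.23 to 1.36) was the largest of the 7 in size and did not pass (edgeR adjusted p = 0.222). The coefficient of variation was 27.2% in KO-labelled and 47.0% in WT-labelled libraries, where counting error alone gives 3.22% and 4.54%. Between the highest and the lowest library the level differed 4.58-fold, against 1.12- to 1.48-fold for the other 6 genes. The difference leaned on single libraries, with a log2 fold change of 0.48 without WT 3, 0.57 without KO 2 and 1.14 without WT 2. Wfdc17 passed with no filter on low counts (0.80, edgeR adjusted p = 6.86e-13) and not with DESeq2 (adjusted p = 0.646). It also passed in edgeR with the replicate number as a block (0.88, adjusted p = 0.00759).

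The clade B serpins split, with Serpinb6a lower in the KO-labelled libraries and Serpinb1a at like levels in both groups. Serpinb6a (ENSMUSG00000060147, chromosome 13, 33917918 to 34002794, minus strand) is the mouse counterpart of human SERPINB6, an intracellular inhibitor of cathepsin G. It had 57.0, 67.9 and 57.5 CPM in KO 1, 2 and 3, against 80.0, 84.2 and 79.0 CPM in WT 1, 2 and 3. Every KO-labelled library was below every WT-labelled library, with KO 2 the nearest. The level fell 1.34-fold, to 60.8 ± 6.18 CPM in KO-labelled libraries, against 81.1 ± 2.77 CPM in WT-labelled libraries (SD, n = 3 each; log2 fold change -0.42, SE 0.09, 95% interval -0.62 to -0.22). The coefficient of variation of Serpinb6a was 10.2% in KO-labelled and 3.42% in WT-labelled libraries, where counting error alone gives 4.64% and 3.85%. The WT-labelled spread was thus below counting error. The adjusted p of 0.0487 (edgeR) lay just under the threshold. The call ended in each fit that left out KO 1, KO 3, WT 1, WT 2 or WT 3 (adjusted p 0.168, 0.148, 0.156, 0.249 and 0.0968) and held without KO 2 (0.0330), with log2 fold changes of -0.50 to -0.37. With all libraries the adjusted p was 0.0570 in edgeR with the size factors of DESeq2 and 0.0620 in limma-voom, while DESeq2's own test called the gene (0.0265).

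**Figure D2:**
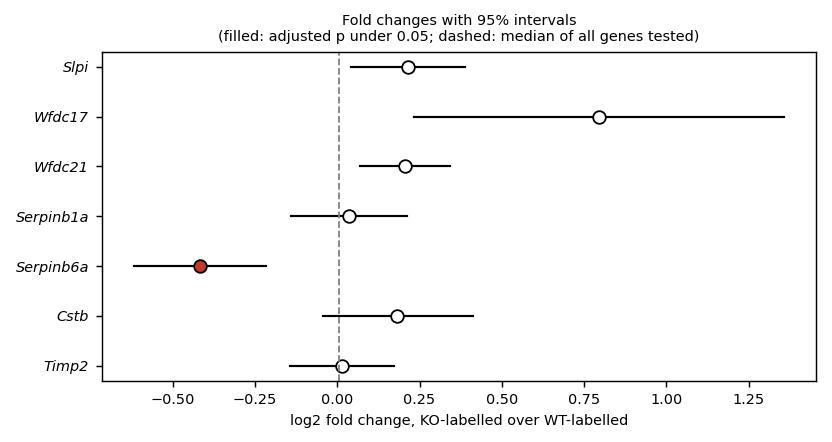
Log2 fold change of each inhibitor gene, KO-labelled over WT-labelled libraries (horizontal axis), with its 95% interval from the edgeR fit; the filled point passed the threshold and the dashed line is the median of all genes tested. Serpinb6a at -0.42 is the one filled point, and the interval of Wfdc17, 0.23 to 1.36, is the widest.

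Ratios within a library do not depend on scaling between libraries and show the same split. Serpinb6a had 11.3, 11.7 and 11.6 counts per 100 Serpinb1a counts in KO 1, 2 and 3, against 14.8, 16.1 and 16.4 in WT 1, 2 and 3. Per 100 Timp2 counts it had 13.9 ± 1.33 in KO-labelled and 18.7 ± 0.715 in WT-labelled libraries, and per 100 Cstb counts 91.3 ± 18.8 and 136 ± 4.13 (SD, n = 3 each, KO- before WT-labelled). The groups did not overlap in any of these 3 ratios, which share the same Serpinb6a counts and were chosen after the values were seen.

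**Figure D3:**
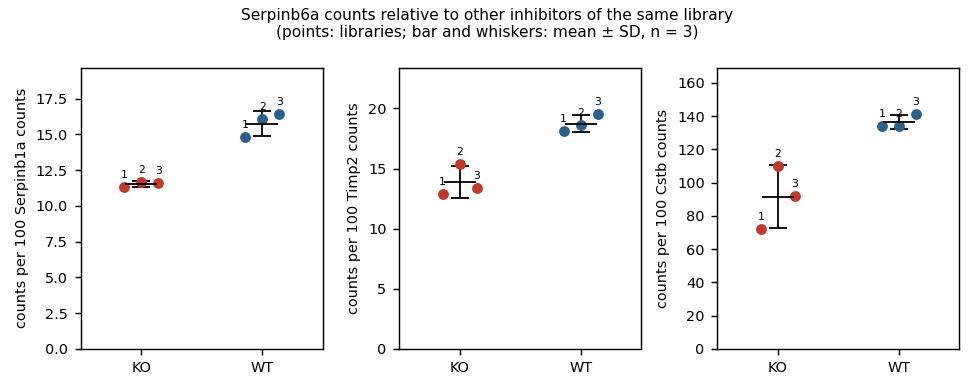
Serpinb6a counts per 100 counts of Serpinb1a, Timp2 and Cstb in the same library (vertical axes from 0), KO-labelled on the left and WT-labelled on the right; points are numbered libraries, bars and whiskers mean and SD. In each panel the KO-labelled points lie below the WT-labelled ones, most tightly against Serpinb1a, at 11.3 to 11.7 and 14.8 to 16.4.

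The macrophage markers were lower in the KO-labelled libraries as well: their median log2 fold change was -1.04 and all 12 were below 0. Their part in the Serpinb6a difference was not tested. Exons of Serpinb6a overlap those of Nqo2 and Ripk1 on the other strand, over 762 and 241 bases, and no source used here gives the strand setting of the counting. The nearest overlapped base of either gene lies 54905 bases from the 3′ end of any of the 13 protein-coding Serpinb6a transcripts. Its distance from the 3′ ends of Nqo2 and Ripk1, where their own tags are read, was not measured. Neither gene passed the test (log2 fold changes 0.18 and -0.02, edgeR adjusted p 0.643 and 0.958). Of 1724 stretches of 50 bases in the last 400 bases of Serpinb6a coding transcripts, 43 also occur in Serpinb6b, Serpinb6c or Gm8436. Serpinb6b had 14 counts and Serpinb6c 1 count in all 6 libraries. With the Serpinb6 genes summed as 1 gene, the log2 fold change was again -0.42 (adjusted p = 0.0439).

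Serpinb1a (ENSMUSG00000044734, chromosome 13, 32842092 to 32851185, minus strand) is the mouse counterpart of human SERPINB1, which inhibits elastase, cathepsin G and proteinase 3, and it lies 1066733 bases from Serpinb6a. It had 507, 583 and 494 CPM in KO 1, 2 and 3, against 541, 523 and 480 CPM in WT 1, 2 and 3. The groups overlapped, with KO 2 the highest library and WT 3 the lowest. The log2 fold change was 0.04 (SE 0.08, 95% interval -0.14 to 0.21; edgeR adjusted p = 0.917), and it was below 0 without KO 2 (-0.043) and without WT 3 (-0.0090). The near-copies Serpinb1b and Serpinb1c had no count in any library.

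Cstb and Timp2 did not pass either. Cstb (ENSMUSG00000005054, chromosome 10, 78425669 to 78427622, plus strand) had 79.0, 61.9 and 62.5 CPM in KO 1, 2 and 3, against 59.7, 63.1 and 56.1 CPM in WT 1, 2 and 3. KO 1 stood above all other libraries, and KO 2 and KO 3 lay inside the WT-labelled range. The log2 fold change was 0.18 (SE 0.11, 95% interval -0.04 to 0.41; edgeR adjusted p = 0.566), and it was 0.061 without KO 1.

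Timp2 (ENSMUSG00000017466, chromosome 11, 118301069 to 118355740, minus strand) differed least of the 7 between its highest and lowest library (1.12-fold). It had 442, 441 and 429.5 CPM in KO 1, 2 and 3, against 443, 452 and 405 CPM in WT 1, 2 and 3. The KO-labelled values lay inside the range of the WT-labelled ones. Its coefficient of variation was 1.62% in KO-labelled and 5.72% in WT-labelled libraries, where counting error gives 1.73% and 1.67%. The log2 fold change was 0.01 (SE 0.07, 95% interval -0.14 to 0.17; edgeR adjusted p = 0.959). It was below 0 with the filter of 5 CPM (-0.0040) and without WT 3 (-0.029).

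A tag is read once per transcript end, so CPM was compared between genes without division by length, although genes can differ in how well their ends are captured. In both groups the order ran from Wfdc21 to Slpi, Serpinb1a and Timp2, with no overlap between neighbours in either group. The 3 lowest genes changed places. In KO-labelled libraries Wfdc17 (129.7 ± 35.4 CPM) came before Cstb (67.8 ± 9.70 CPM) and Serpinb6a (60.8 ± 6.18 CPM), and Cstb and Serpinb6a overlapped. In WT-labelled libraries Serpinb6a (81.1 ± 2.77 CPM) came before Wfdc17 (74.1 ± 34.8 CPM) and Cstb (59.6 ± 3.49 CPM; SD, n = 3 each), with Wfdc17 overlapping both and Serpinb6a above Cstb in each library.

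Few other inhibitor genes had enough counts to be tested. Of 110 inhibitor genes of 6 families found in the table, 60 had no count, 31 had up to 45 counts in all and stayed below the filter, and 19 were tested. Serpinb6a was the single gene of the 19 past the threshold, where 1.03% of all genes tested were called. A single call is too few to set apart from that share. The 19 had a median log2 fold change of 0.02, and the 12 outside the 7 genes one of -0.014, against 0.0060 over all genes tested.

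Among WAP-domain genes the 3 tested were Wfdc21, Slpi and Wfdc17, all above 0, and 9 others were not tested. Of 27 clade B serpins 19 had no count, and the third gene tested, Serpinb10, was at 57.3 ± 6.47 CPM in KO-labelled and 51.1 ± 7.73 CPM in WT-labelled libraries (log2 0.17, edgeR adjusted p = 0.676). Its exons overlap Serpinb2 on its own strand. Of the 28 serpins of other clades only Serpine2 (log2 0.27) and Serpina3g (-1.32, adjusted p = 0.237) were tested, both under 10 CPM.

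Cst3, the secreted cystatin C, was far more abundant than Cstb, at 425 ± 47.0 CPM in KO-labelled and 431 ± 6.76 CPM in WT-labelled libraries (SD, n = 3 each; log2 -0.02, edgeR adjusted p = 0.957). Timp2 was the one abundant metalloproteinase inhibitor: Reck and Timp3 were tested at under 10 CPM (log2 -0.0080 and -0.16), and Timp1 had 5 counts in all libraries. In the list of Kunitz, Kazal and other inhibitors the most abundant were Pi16, Cast (the calpain inhibitor calpastatin) and App, with log2 fold changes of 0.02, -0.10 and 0.06 and adjusted p of 0.716 or more. Aplp2, a relative of App with a Kunitz domain, was at -0.48 with groups that did not overlap and an adjusted p of 0.102.

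**Figure D4:**
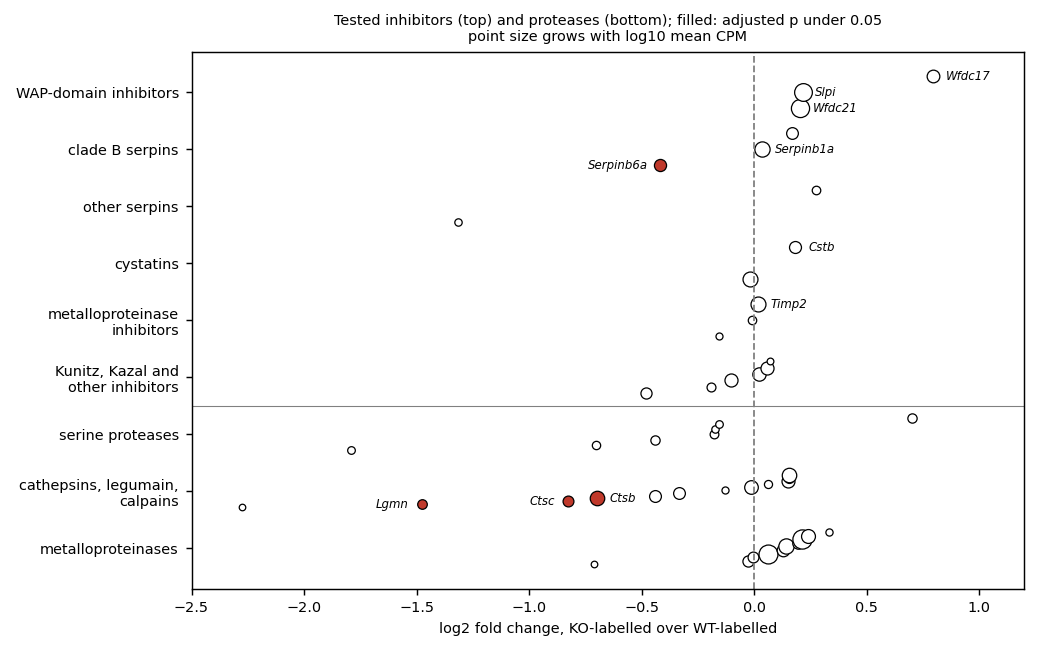
Log2 fold change, KO-labelled over WT-labelled libraries (horizontal axis), of every tested gene of the inhibitor families (upper rows) and of the protease lists (lower rows). Point size grows with the mean level and filled points passed the threshold. Among 19 inhibitors Serpinb6a is filled. Among 29 genes of the protease lists the cathepsin genes Ctsb and Ctsc and the legumain gene Lgmn are, all on the lower side.

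Genes of the protease families that these inhibitors act on were measured at very unlike levels. Elastase (Elane) and cathepsin G (Ctsg) are targets of Slpi and Serpinb1a, and proteinase 3 (Prtn3) is a target of Serpinb1a. Their genes are transcribed in promyelocytes and were near the floor. Elane was at 2.38 ± 1.01 CPM in KO-labelled and 2.66 ± 1.02 CPM in WT-labelled libraries, and Ctsg at 2.86 ± 0.327 and 3.20 ± 1.07 CPM in the same order (SD, n = 3 each). None of 7 tested serine protease genes passed; the most abundant were Prss57 (log2 0.70), Plau (-0.44) and Prtn3 (-0.18), with edgeR adjusted p of 0.318, 0.603 and 0.843.

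Among 12 tested genes of cathepsins, legumain and calpains, 3 fell and none rose, where 1.03% of all genes were called. Ctsb, cathepsin B, a target of stefin B, fell to 248 ± 47.3 CPM in KO-labelled libraries, against 403 ± 14.3 CPM in WT-labelled libraries (SD, n = 3 each; log2 -0.70, SE 0.11, edgeR adjusted p = 0.00493). Ctsc, which activates the serine proteases of granules, fell by 0.83 on the log2 scale (adjusted p = 0.0176), and Lgmn, legumain, fell by 1.48 (adjusted p = 0.00114). The call of Lgmn held in every alternative; that of Ctsb ended without WT 2 (0.0536), and that of Ctsc without any library other than KO 3 (0.0589 to 0.0960). The abundant Capns1 (log2 0.16) and Ctsh (-0.013) did not pass, nor did Ctss (-0.44, adjusted p = 0.104). These genes fell beside the macrophage markers, whose part in the difference was not tested. Exons of Ctsb overlap Fdft1 on the other strand, and those of Pi16, Cast, App, Prss57, Prtn3, Capns1 and Adam8 overlap other genes there too.

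None of 10 tested metalloproteinase genes passed. Mmp9, the gelatinase held in neutrophil granules, was at 7072 ± 555 CPM in KO-labelled and 6102 ± 162 CPM in WT-labelled libraries, and Mmp8, neutrophil collagenase, at 5640 ± 166 and 5412 ± 202 CPM in the same order (SD, n = 3 each; log2 0.21 and 0.06, edgeR adjusted p 0.174 and 0.781). Both exceeded Timp2 more than 10-fold in level. Adam8 was at log2 0.14 (adjusted p = 0.553).

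The genes whose pattern over the 6 libraries was nearest to that of each inhibitor were found by the root mean square difference of centred log2 CPM. The search covered 5649 genes averaging 10 CPM or more, with predicted gene models left out. For Slpi the nearest were Ncf4 (0.0141) and Arl2bp (0.0225), and for Wfdc21 Pygl (0.0255) and Taldo1 (0.0267). Serpinb1a was nearest to Actr1b (0.0153) and Stk40 (0.0183), Timp2 to Kdm5c (0.0166) and Coro1c (0.0174), and Cstb to Zfp787 (0.0402). Serpinb6a lay nearest to Etv5 (0.0449) and Tbc1d13 (0.0627), which did not pass the test (log2 -0.40 and -0.38, edgeR adjusted p 0.398 and 0.199).

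For Wfdc17 the nearest were Ifitm1 (0.303) and Stfa2 (0.305). The difference is not scaled by the spread of a gene, so it is larger for a gene as variable as Wfdc17. It cannot show whether other genes share the pattern of Wfdc17. Ifitm1 had 467, 488 and 339 CPM in KO 1, 2 and 3, against 322, 349 and 209.7 CPM in WT 1, 2 and 3, with KO 2 and WT 2 the highest and KO 3 and WT 3 the lowest of their groups, as for Wfdc17. Stfa2, a stefin A gene with near-identical copies, passed the test at log2 1.10 (edgeR adjusted p = 0.0242).

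**Figure D5:**
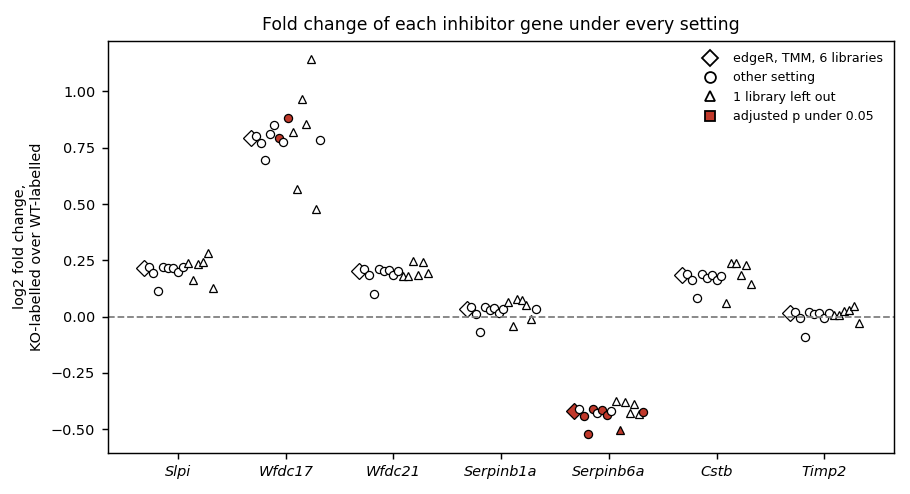
Log2 fold change, KO-labelled over WT-labelled libraries (vertical axis), of each inhibitor gene under each setting: diamond, edgeR with TMM factors and all libraries; circles, other tools, scalings and filters; triangles, 1 library left out; filled symbols passed the threshold. Serpinb6a runs from -0.52 to -0.37 with some symbols open, and Wfdc17 from 0.48 to 1.14 with 2 filled.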

How the data were processed

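The authors deposited 1 table of counts, whole numbers for each Ensembl gene without scaling between the 6 samples. The submitters' processing notes name RSEM 1.2.3, DESeq2 and mm10, with no role or order; no source used here gives the aligner, annotation release or strand setting. RSEM can divide reads between near-identical genes. Names and coordinates came from GENCODE vM21 (GRCm38, the assembly of mm10), which named 51596 of 51789 identifiers, and promoters from RefSeq (GRCm38.p6).

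Counts were tested with edgeR 4.0.16 (glmQLFit, glmQLFTest) in R 4.3.3 with TMM factors, filterByExpr defaults (minimum count 10, minimum total 15), the group as the one term and Benjamini-Hochberg adjustment over 10397 genes. The standard error is the log2 fold change over the square root of F. On counts simulated for this comparison over 10397 genes, the test called 48% of genes at a true 1.5-fold rise, 64% at 2-fold and 70% at a fall to 0.5 of the level, with 9 of 10197 unchanged genes. Replicates of a group differed beyond sampling noise (chi-square per gene 4.33 to 7.41). Alternatives were DESeq2 1.42.0, limma-voom (limma 3.58.1), other scalings and filters, the replicate block, summed paralogs and leaving out each library.

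The members and lists were chosen with earlier results of these data known. The text names the 7 genes, Snph, list members past the threshold, the 3 most abundant of each inhibitor and protease list and the 2 genes nearest in pattern to each member, of which 1 is not reported here; of the cell type lists those tied to a result are given. Other genes named (Elane, Ctsg, Ctss, Aplp2, Timp1, Serpinb9, Serpinb6b, Serpinb6c, Nqo2, Ripk1) were chosen after their values were seen.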

Additional observations from a re-analysis of the deposited data

How the results depend on the processing

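Counts of all genes past the threshold were 107 (76.6% lower), and 162 (88.9% lower) with total-count scaling, 174 (65.5%) with DESeq2, 287 (60.3%) with no filter and 49 to 97 without 1 library. Total-count scaling moved the median of all genes by -0.104 on the log2 scale; relative to that median Serpinb6a was at -0.423 to -0.422, Wfdc17 at 0.788 to 0.793, Serpinb1a at 0.030 to 0.031 and Timp2 at 0.0090 under all 4 scalings. Serpinb6a lost its call in edgeR with DESeq2's size factors (-0.411), in limma-voom (-0.426) and with the replicate block (-0.418, adjusted p = 0.0630), kept it with DESeq2 (adjusted p = 0.0265), upper-quartile factors (0.0338), total counts (0.0104), no filter (0.0103) and the filter of 5 CPM (0.0265), and ran from -0.504 to -0.373 without 1 library. Wfdc17 passed with no filter (0.795, adjusted p = 6.86e-13) and with the replicate block (0.883, adjusted p = 0.00759), not with DESeq2 (adjusted p = 0.646), and the cause was not tested; the block gave 92 calls in all and changed no call of the other 5 genes. Same-numbered libraries did not deviate together as a whole (r -0.0274 to -0.000401 over 5935 genes). That cannot decide whether the numbers pair samples, and the labels do not say. Serpinb1a was below 0 before that median was taken off with total counts (-0.068) and ran from -0.043 to 0.079 without 1 library. Timp2 likewise with upper-quartile factors (-0.0080) and total counts (-0.089); it was at -0.0040 with the filter of 5 CPM and ran from -0.029 to 0.048 without 1 library; neither gene passed in any of these fits. Slpi, Wfdc21 and Cstb kept their direction without passing in all 14 alternatives. Inhibitor genes past the threshold numbered 1, and 0 in edgeR with DESeq2's size factors, 0 with limma-voom, 2 with total counts, 3 with no filter, 1 with the block (Wfdc17) and 0 to 1 without 1 library. Protease genes numbered 3, and 5 with total counts, 5 with no filter and 1 to 3 without 1 library.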

Other observations

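Serpinb9, a clade B serpin that inhibits granzyme B, had too few counts for the filter and was picked after its values were seen. It had 0, 1 and 1 counts in KO 1, 2 and 3, against 8, 9 and 6 counts in WT 1, 2 and 3, and with no filter its log2 fold change was -3.18 (SE 1.26, edgeR adjusted p = 0.324). Wfdc18, a WAP-domain gene, had 8, 10 and 0 counts in KO 1, 2 and 3, against 15, 7 and 4 counts in WT 1, 2 and 3. Cst7, cystatin F, had 24 counts in all KO-labelled and 17 in all WT-labelled libraries.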
